A study of Mus musculus with 14 samples.

Results

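Genes that make or carry GABA, that identify GABA-releasing interneurons, or that encode the receptors on which GABA acts were followed across 14 RNA-seq libraries of mouse cortical neurons. The 30 genes were taken by symbol, out of 52459 symbols in the deposited gene matrices. Of these, 13 encode receptor subunits or the receptor scaffold gephyrin, and 17 serve GABA synthesis, transport and breakdown or interneuron identity. All 30 symbols were present, 29 passed the filter on low counts, and Gabra6 had 0 estimated counts in every library.

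The study asked how serine 1382 of BRG1, the ATPase of a chromatin-remodelling complex, bears on the transcriptional response of neurons to activity. SE neurons carried a knock-in glutamate at that serine and SA neurons a knock-in alanine, and each knock-in had its own wild-type littermates, called the SE-line wild type and the SA-line wild type. Cortical neurons of E16.5 embryos were grown in vitro, silenced on day 5 with 1 µM tetrodotoxin, a sodium channel blocker, and 100 µM APV, an NMDA receptor blocker, and exposed on day 6 to 50 mM KCl for 1 h or kept at basal KCl. The groups of 2 libraries were SE after KCl, SE at basal, SA after KCl, SA at basal, SA-line wild type after KCl and SA-line wild type at basal, while the SE-line wild type had 1 library after KCl and 1 at basal. The pretreatment with both blockers was common to all groups. The labels do not give zygosity, sex, pooling of embryos or any restriction of the allele to a cell type. They also do not say whether replicates came from separate cultures or animals, so the p-values measure only the spread between these libraries.

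GABA is made from glutamate by the decarboxylases encoded by Gad1 and Gad2, loaded into vesicles by the transporter of Slc32a1 and broken down by the transaminase of Abat. GABA-A receptors are chloride channels of mixed alpha, beta, gamma and delta subunits, whereas GABA-B receptors are G-protein-coupled dimers of the Gabbr1 and Gabbr2 products. Cortical interneurons arise in the ganglionic eminences below the cortex and migrate into it. Nkx2-1, Lhx6, Sox6 and Maf mark those of the medial eminence, and Sp8 marks those of the caudal and dorsal lateral eminences as well as progenitors there. Sp9 is also expressed in the eminences and is not assigned to 1 of them here.

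Library totals lay between 22625916 and 23096206 estimated counts, and 17732 genes were tested. Libraries separated first by line: the first principal component held 63.4% of the variance and divided the 6 SE-line libraries from the 8 SA-line libraries. The pair of libraries of replicate 1 of the SA-line wild type stood apart from the rest of their line on the second component. Differences between the lines are given with and without that pair for Gabrd, Gabbr2 and Reln. The pair stood apart for Lhx6, Vip and Pvalb too, but the sizes of their line differences are given only with it. Pan-neuronal genes were abundant in both lines, with a summed level of 3440 to 3940 TPM (a level corrected for transcript length) in SE-line libraries and 2670 to 4390 TPM in SA-line libraries.

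Among the receptor genes, the GABA-B subunits and the alpha 5 subunit were the most abundant in both lines. Gabbr1 had a median of 255 TPM over the 6 SE-line libraries (252 to 286) and 217 TPM over the 8 SA-line libraries (145 to 248). Gabbr2, the partner that carries the G-protein coupling, had medians of 104 TPM in the SE line and 74.5 TPM in the SA line, and its range overlapped that of Gabra5, at 102 and 61.3 TPM. Gphn, the scaffold that anchors GABA-A receptors at inhibitory synapses, came next at 41.7 TPM in the SE line and 33.6 TPM in the SA line. The order below Gphn depended on the line. In the SE line Gabra3 stood clear of the rest at 27.5 TPM, Gabrb2 (20.7 TPM) and Gabrd (18.0 TPM) overlapped, and Gabrg3 (2.67 TPM), Gabra2 (2.40 TPM) and Gabrg1 (1.51 TPM) were lowest. In the SA line the medians of Gabrb1 (18.1 TPM), Gabrb2 (15.4 TPM), Gabra4 (14.98 TPM), Gabra2 (14.2 TPM), Gabrd (13.6 TPM) and Gabra3 (12.5 TPM) lay within ranges that overlapped from neighbour to neighbour.

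**Figure D1:**
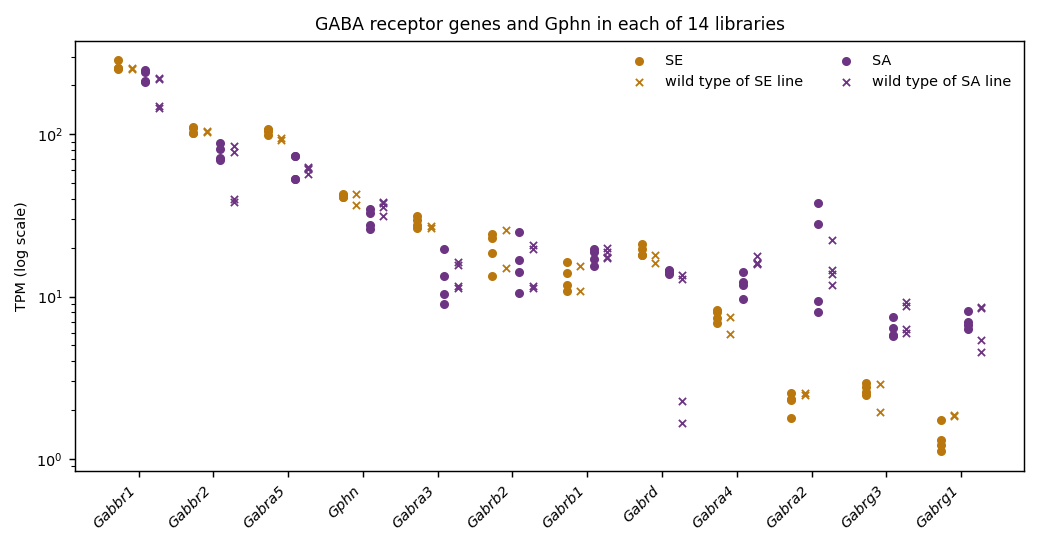
Level in TPM on a log scale of the 12 detected receptor-side genes in each of the 14 libraries, ordered by median. Points are SE and SA libraries and crosses their wild types, with both treatments in each column. Gabra2, Gabrg3 and Gabrg1 lay below 3 TPM in every SE-line library, and Gabrd was at 2.26 and 1.66 TPM in the 2 libraries of replicate 1 of the SA-line wild type.

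After 1 h of KCl the transcription factor genes Sp8 and Sp9 rose, and they were the 2 called members among the 29 tested. These calls are from edgeR without a replicate block, and a fit with a block, given at the end, called more members. Over all genes, 4.82% passed the same test (edgeR quasi-likelihood, Benjamini-Hochberg adjusted p under 0.05), 2.81% upward and 2% downward. Both genes encode zinc-finger factors of the Sp family. Sp8 had 22.03 and 18.1 CPM (counts scaled to a common library size, with no length correction) in SE after KCl, against 10.6 and 8.29 CPM in SE at basal. In the SE-line wild type it had 19.2 CPM after KCl and 11.1 CPM at basal. In SA it had 45.8 and 54.0 CPM after KCl, against 29.999 and 34.3 CPM at basal, and in the SA-line wild type 59.7 and 47.2 CPM after KCl, against 39.1 and 30.6 CPM at basal. On CPM every KCl library lay above every basal one within each line. The same held for 14.2% of tested genes in the SE line and 2.92% in the SA line. The highest KCl level of the SE line was still below the lowest basal level of the SA line. On TPM, Sp8 was separate by treatment in the SE line but overlapped in the SA line. There it had 20.76 TPM in SA replicate 1 after KCl, against 20.84 TPM in replicate 1 of the wild type at basal. Over all 14 libraries Sp8 was 1.72-fold higher after KCl (log2 0.78 ± 0.10, standard error; adjusted p = 0.00156).

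Sp9 had 21.1 and 15.8 CPM in SE after KCl, against 11.6 and 11.2 CPM in SE at basal, and 17.5 CPM after KCl and 11.6 CPM at basal in the SE-line wild type. It had 59.3 and 58.7 CPM in SA after KCl, against 40.6 and 44.7 CPM in SA at basal, and 68.4 and 57.6 CPM after KCl, against 44.7 and 42.5 CPM at basal, in the SA-line wild type. KCl and basal libraries of Sp9 were separate within each line on CPM and on TPM. The fold was 1.48 over all libraries (log2 0.57 ± 0.08, standard error; adjusted p = 0.00197). Taken line by line in the same model, Sp8 rose by log2 0.98 ± 0.16 in the SE line (adjusted p = 0.00992) and by log2 0.63 ± 0.13 in the SA line (adjusted p = 0.0471), and Sp9 rose by log2 0.66 ± 0.12 in the SE line (adjusted p = 0.0184) and by log2 0.50 ± 0.10 in the SA line (adjusted p = 0.0367). In a model of the 8 SA-line libraries alone both calls were lost, with adjusted p = 0.107 for Sp8 and 0.0691 for Sp9. The annotated Sp9 gene shares 270 exonic bases with Cir1 on the opposite strand, and strand-specific counting is not stated, so part of the Sp9 count may come from Cir1 reads.

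The 250 bases before the RefSeq start sites of Sp8 and Sp9 are printed because these were the members that rose after depolarisation. They were read from RefSeq promoter windows of GRCm38.p6, in which 25 of the 30 members had at least 1 window, and run 5′ to 3′ on the plus strand. Sp8 had 3 windows, of which the most upstream is shown, and Sp9 had 1. Sp8 lies on chromosome 12 at chr12:118846329-118852576 and Sp9 on chromosome 2 at chr2:73271925-73284706, both on the plus strand. The windows are chr12:118846079-118846328 for Sp8 and chr2:73271676-73271925 for Sp9. The last base of the Sp9 window is the first base of the Sp9 gene in GENCODE M21. Capitals mark CCAAT boxes (CCAAT, or ATTGG on the opposite strand) and the GC box (GGGCGG, or CCGCCC on the opposite strand), a motif that Sp-family factors are known to bind.
Sp8: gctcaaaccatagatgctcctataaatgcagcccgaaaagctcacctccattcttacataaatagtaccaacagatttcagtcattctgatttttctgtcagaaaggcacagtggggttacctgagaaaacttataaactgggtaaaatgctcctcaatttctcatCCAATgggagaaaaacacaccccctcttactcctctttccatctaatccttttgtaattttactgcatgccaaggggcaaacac
Sp9: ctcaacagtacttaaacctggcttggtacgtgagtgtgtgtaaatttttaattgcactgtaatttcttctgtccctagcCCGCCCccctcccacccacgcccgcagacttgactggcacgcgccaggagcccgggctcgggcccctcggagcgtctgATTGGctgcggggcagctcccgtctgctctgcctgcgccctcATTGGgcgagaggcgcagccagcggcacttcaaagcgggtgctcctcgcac
The Sp8 window was 40.8% G and C and the Sp9 window 62.4%, against a median of 52.4% over all 32851 windows. Sp8 held 1 CCAAT box, and Sp9 held 2 CCAAT boxes and 1 GC box. A CCAAT box was present in 33.8% of all windows and a GC box in 32.7%. Motifs through which activity-regulated factors are known to bind were searched on both strands too, namely the cyclic AMP response element TGACGTCA, its core TGACG (contained in the full element), the AP-1 motif TGANTCA and the E-box CACGTG. None of these letters was in either window, and over all windows they occurred in 1.55%, 17.8%, 6.75% and 6.02%.

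Gad1 came closest to the other 2 without being called. It had 74.7 and 62.7 CPM in SE after KCl, against 53.6 and 45.3 CPM in SE at basal, and 60.7 CPM after KCl and 50.2 CPM at basal in the SE-line wild type. In SA it had 123 and 115 CPM after KCl, against 107 and 91.8 CPM at basal, and in the SA-line wild type 161 and 130 CPM after KCl, against 127 and 103 CPM at basal. Each KCl library was above the basal library of the same genotype and number, but on CPM the ranges overlapped in the SA line. On TPM the KCl and basal libraries of Gad1 were separate in both lines. The difference was log2 0.35 ± 0.09 (standard error) with an adjusted p of 0.055, so it stayed above the threshold. DESeq2 called it, and edgeR called it when both libraries of replicate 1 of the SA-line wild type were left out (adjusted p = 0.0359), or only the basal library of that replicate, or only replicate 2 of that wild type after KCl. Gad2 and Slc32a1 were separate by treatment in the SE line, overlapped in the SA line and were at log2 0.17 ± 0.16 and 0.18 ± 0.09 over all libraries (adjusted p = 0.822 and 0.455). Maf was higher after KCl in the SA line without overlap on both scales, overlapped in the SE line and was not called. On CPM, 14.2% of tested genes were higher after KCl without overlap in the SE line and 2.92% in the SA line. No such share was taken on TPM. Erbb4 was lower in each KCl library than in the basal library of the same genotype and number, and was not called without a replicate block. The labels do not pair libraries by number, and no share over all genes was taken for the order of same-numbered libraries.

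**Figure D2:**
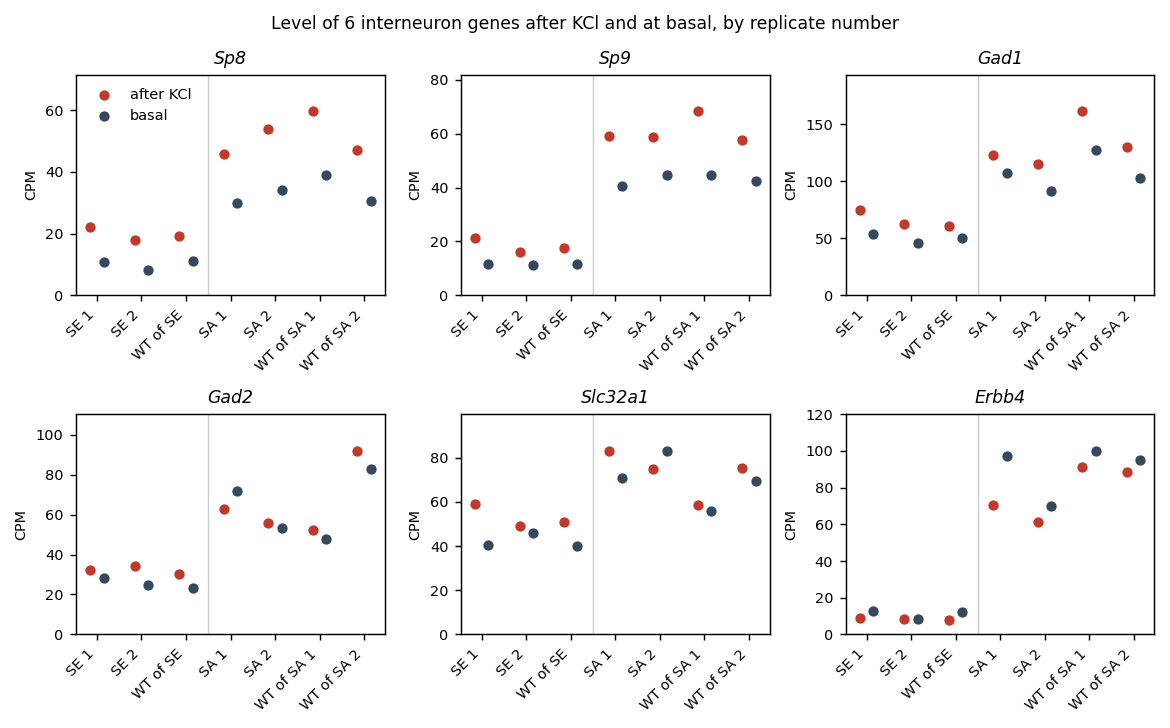
Level in CPM of 6 interneuron genes after KCl (red) and at basal (dark), 1 point per library, placed by genotype and replicate number with the SE line left of the grey rule. For Sp8 and Sp9 all KCl points lie above all basal points of the same line, and the SE line lies below the SA line in both treatments.

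Among other interneuron genes, 6 of 27 rose after KCl and 0 fell. They included Dlx5, a homeobox factor of the ganglionic eminences (2.17-fold, adjusted p = 5.6e-05), Tac1, which encodes the substance P precursor (3.15-fold, adjusted p = 0.00199), and Cort, which encodes cortistatin (2.64-fold, adjusted p = 0.00905). The median log2 change was 0.05 over the 27 genes and 0.12 over the 17 interneuron members, against 0.01 over all genes tested. The list was chosen with earlier results of these data known and is not independent evidence.

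The receptor side was without a called member in any KCl comparison by edgeR without a replicate block. Over all libraries its median log2 change was −0.06 over 12 tested genes, and 0 of them had an unadjusted p under 0.05. DESeq2 and limma on TPM also called none of the 12 in any KCl comparison. With a replicate block, edgeR called Gabra3, Gabrb1 and Gabrb2 over all libraries. The values farthest from 0 were those of the beta subunits. Gabrb2 had 30.1 and 42.8 CPM in SE after KCl, against 55.5 and 50.5 CPM in SE at basal, but 22.9 and 40.6 CPM after KCl and 22.01 and 39.6 CPM at basal in the SA-line wild type. Its log2 difference was −0.37 ± 0.20 (standard error; adjusted p = 0.527) and that of Gabrb1 −0.29 ± 0.14 (adjusted p = 0.43). On CPM, Gabra3, Gabrb1 and Gabrb2 were lower in every KCl library than in every basal library of the SE line, as were 13% of all tested genes. On TPM, Gabrb2 was separate in the same direction, Gabra3 and Gabrb1 overlapped, and Gabrg3 was higher in every KCl library of that line. In the SA line none of the 13 receptor-side genes was separate by treatment on either scale, against 2.92% of tested genes higher and 2.47% lower on CPM. Of 27 tested genes of other GABA signalling roles (transporters, chloride carriers, receptor-associated proteins), none was called over all libraries by edgeR, DESeq2 or limma, and 2 had an unadjusted p under 0.05.

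By genotype, the KCl response of Sp8 was called in SE by edgeR without a replicate block and not in SA or in wild type. DESeq2 called both Sp8 and Sp9 in wild type. The differences in response between genotypes were not called. Sp8 changed by log2 1.08 ± 0.20 in SE (adjusted p = 0.0266), 0.64 ± 0.19 in SA (adjusted p = 0.329) and 0.68 ± 0.16 in the 3 wild-type pairs (adjusted p = 0.0873). Over all genes, 1.66% were called in SE (1.22% higher and 0.446% lower), 0.846% in SA and 1.41% in wild type. Without SE replicate 1 after KCl the adjusted p for Sp8 in SE was 0.215, without SE replicate 2 after KCl 0.0669, without SE replicate 1 at basal 0.0832 and without SE replicate 2 at basal 0.258. Sp9 changed by log2 0.70 ± 0.15 in SE (adjusted p = 0.0575), 0.47 ± 0.14 in SA (adjusted p = 0.361) and 0.55 ± 0.12 in wild type (adjusted p = 0.0631). No member differed in response between SE and wild type or between SA and wild type by edgeR, DESeq2 or limma, and 0 of the 29 had an unadjusted p under 0.05 in either. The background of these tests was 0% of genes called by edgeR. For the response of the SE line minus that of the SA line, where 0.107% of genes were called, the lowest p among the members was that of Sp8 (log2 0.31 ± 0.22, unadjusted p = 0.18, adjusted p = 1).

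SA neurons did not differ from their wild type in any member by the edgeR test, at basal or after KCl. No gene of the 17732 was called in either treatment (0%), while 1279 genes at basal and 2040 after KCl had an unadjusted p under 0.05. DESeq2 called 0 genes at basal and 119 after KCl, none of them a member, and limma on TPM called 0 in both. Sox6, a factor of medial eminence interneurons, had the lowest p among the members, but bulk RNA does not show which cells expressed it. It had 66.5 and 75.2 CPM in SA after KCl, against 99.2 and 90.4 CPM in the wild type, and 66.6 and 74.7 CPM in SA at basal, against 87.4 and 82.7 CPM in the wild type. The 4 SA libraries lay below the 4 wild-type libraries, as they did for 5.71% of tested genes, while they lay above for 8.84%. The log2 difference was −0.42 ± 0.11 after KCl (adjusted p = 0.32) and −0.27 at basal (adjusted p = 0.621). It was called in a model with crossed replicate numbers, chosen after seeing the data, and in none of the other models run. Erbb4, the neuregulin receptor of interneurons, had 70.5 and 61.1 CPM in SA after KCl, against 91.3 and 88.7 CPM in the wild type, a log2 difference of −0.45 (adjusted p = 0.412). At basal its ranges overlapped, with 97.2 and 69.9 CPM in SA, against 100.2 and 94.9 CPM in the wild type.

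Several members differed more between the replicates of the SA-line wild type than between SA and wild type. Gabrd, the delta subunit of extrasynaptic GABA-A receptors, had 16.9 and 17.0 CPM in SA after KCl, against 2.54 and 15.1 CPM in wild-type replicates 1 and 2, and at basal 15.8 and 17.8 CPM in SA, against 2.03 and 13.2 CPM. Reln, which encodes the secreted protein reelin, had 132 and 85.2 CPM in SA at basal, against 32.9 and 89.9 CPM in the wild type. Gabbr2 had 334 and 277 CPM in SA at basal, against 139 and 288 CPM. In each case wild-type replicate 1 was low and wild-type replicate 2 was near the SA libraries. Vip was low in wild-type replicate 1 as well, whereas Lhx6 and Pvalb were high in it. Lhx6 had 27.2 and 26.8 CPM in SA at basal, against 44.2 and 23.4 CPM in the wild type. The neural progenitor list was high in that replicate, with a summed level of 3119 and 2793 TPM against 1410 and 1476 TPM in wild-type replicate 2 and 816 to 1680 TPM in SA. The pan-neuronal list was low in it, at 2673 and 2813 TPM. Their part in the member values was not tested. Without replicate 1 the basal difference of Gabrd was log2 0.35 ± 0.16 (adjusted p = 0.913), against 1.15 ± 0.78 with it (adjusted p = 0.642), and no member was called. Gabra2 varied within SA instead, with 93.4 and 21.2 CPM at basal, against 26.7 and 28.8 CPM in the wild type.

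**Figure D3:**
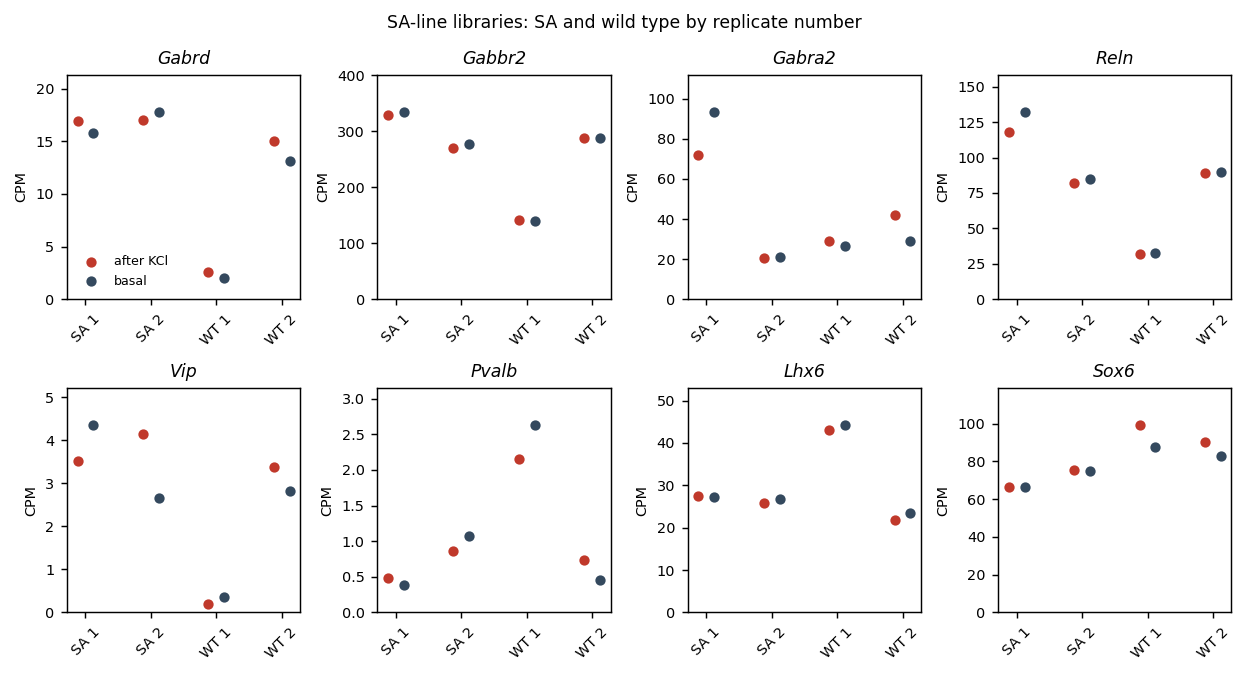
Level in CPM of 8 members in the SA-line libraries, with SA left of its wild type (WT), after KCl (red) and at basal (dark). Wild-type replicate 1 lies apart for Gabrd, Gabbr2, Reln, Vip, Pvalb and Lhx6, SA replicate 1 lies apart for Gabra2, and the 4 SA points lie below the 4 wild-type points for Sox6.

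SE neurons were set against a single wild-type library per treatment, so the spread was taken from the other groups. No member and no other gene was called by edgeR at either treatment (0%), with 187 genes at basal and 240 after KCl at an unadjusted p under 0.05. None of the 29 members was below that value. DESeq2 called 0 genes at basal and 1 after KCl, which was no member, and limma on log2(TPM + 1) called 1 and 2, none of them a member. SE and wild-type levels were close for the abundant members. Gad1 had 53.6 and 45.3 CPM in SE at basal, against 50.2 CPM in the wild type, and Gabra5 had 157 and 166 CPM, against 148 CPM. The rare Lhx8 had 0.712 and 0.603 CPM in SE after KCl, against 1.33 CPM in the wild type (log2 −1.01, adjusted p = 1).

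The SE line, SE and its wild type together, was then set against the SA line, SA and its wild type. Here 22 of 29 tested members were called at basal, 6 higher and 16 lower in the SE line, where 45.8% of all genes were called, 20.7% higher and 25.2% lower. After KCl the same 22 were called, against 48.1% of all genes, 22.2% higher and 25.9% lower. At this background a call alone is no mark of these members. Line, litters, dissection and library preparation cannot be told apart. In bulk RNA, fewer cells of a type and less RNA per cell cannot be told apart either. The median log2 difference at basal was −1.36 over the 17 interneuron genes and 0.49 over the 12 tested receptor genes, against 0.00 over all genes tested.

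The receptor side moved in both directions. Of 12 tested genes, 4 were higher and 4 lower in the SE line at basal. Gabra3 had 29.7 and 31.2 TPM in SE and 27.4 TPM in its wild type at basal, against 19.7 and 10.4 TPM in SA and 11.6 and 16.2 TPM in its wild type. It was 2.27-fold higher in the SE line (log2 1.18 ± 0.23, adjusted p = 0.00247), and the lines did not overlap. Gabra5, whose alpha 5 subunit is largely extrasynaptic, had 105 and 108 TPM in SE and 94.6 TPM in its wild type, against 73.2 and 52.9 TPM in SA and 61.5 and 62.5 TPM in its wild type (1.84-fold, adjusted p = 0.000777). Gphn was 1.38-fold higher (adjusted p = 0.00486), but its call at basal was lost with wild-type libraries alone in the contrast (log2 0.34, adjusted p = 0.14) and on TPM with limma (adjusted p = 0.176 and 0.177 with pseudocounts of 1 and 0.1). Gabbr2 was 1.71-fold higher (adjusted p = 0.0456). Its call was lost in 12 of 23 alternatives, the most among the called receptor genes. Without both libraries of replicate 1 of the SA-line wild type it was at log2 0.56 and stayed called. Gabrd was not called over all libraries (log2 1.00, adjusted p = 0.198) and was called without that pair (log2 0.60, adjusted p = 0.00215).

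The lower receptor genes were Gabra2, Gabra4, Gabrg1 and Gabrg3. Gabra2, an alpha subunit of synaptic receptors, had 2.54 and 1.79 TPM in SE and 2.47 TPM in its wild type at basal, against 38.0 and 9.36 TPM in SA and 11.8 and 14.6 TPM in its wild type. It was 6.89-fold lower in the SE line (log2 −2.78 ± 0.60, adjusted p = 0.00423). With wild-type libraries alone in the contrast the difference was −2.21 (adjusted p = 0.0967). Gabrg1 was 3.50-fold lower (log2 −1.81 ± 0.26, adjusted p = 0.000471), Gabrg3 2.74-fold lower (log2 −1.46 ± 0.23, adjusted p = 0.000821) and Gabra4 1.79-fold lower (log2 −0.84 ± 0.13, adjusted p = 0.000573). The ranges of the lines were apart for these 4 genes on both scales, as they were on CPM for 20.8% of all tested genes in this direction and 18.6% in the other.

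Neighbouring receptor genes were not all called in the same direction on counts. On chromosome 5 (GRCm38, GENCODE M21) Gabrg1 (chr5:70751047-70842617), Gabra2 (chr5:70957597-71095849), Gabra4 (chr5:71569749-71658308) and Gabrb1 (chr5:71658113-72149037) lie in 1 cluster. The first 3 were lower in the SE line, and Gabrb1 was at log2 0.25 ± 0.20 on counts (adjusted p = 0.34). On TPM Gabrb1 at basal was below the SA line in all SE-line libraries, at 11.8 to 16.3 TPM in the SE line and 17.5 to 19.7 TPM in the SA line (limma on log2(TPM + 1), log2 −0.33, adjusted p = 0.0867). Gabra4 and Gabrb1 share 46 exonic bases on opposite strands, whose reads cannot be told apart without strand. On chromosome 7, Gabrg3 (chr7:56716465-57387188) and Gabra5 (chr7:57407672-57510059) lie 20.5 kb apart on the same strand and were called in opposite directions.

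**Figure D4:**
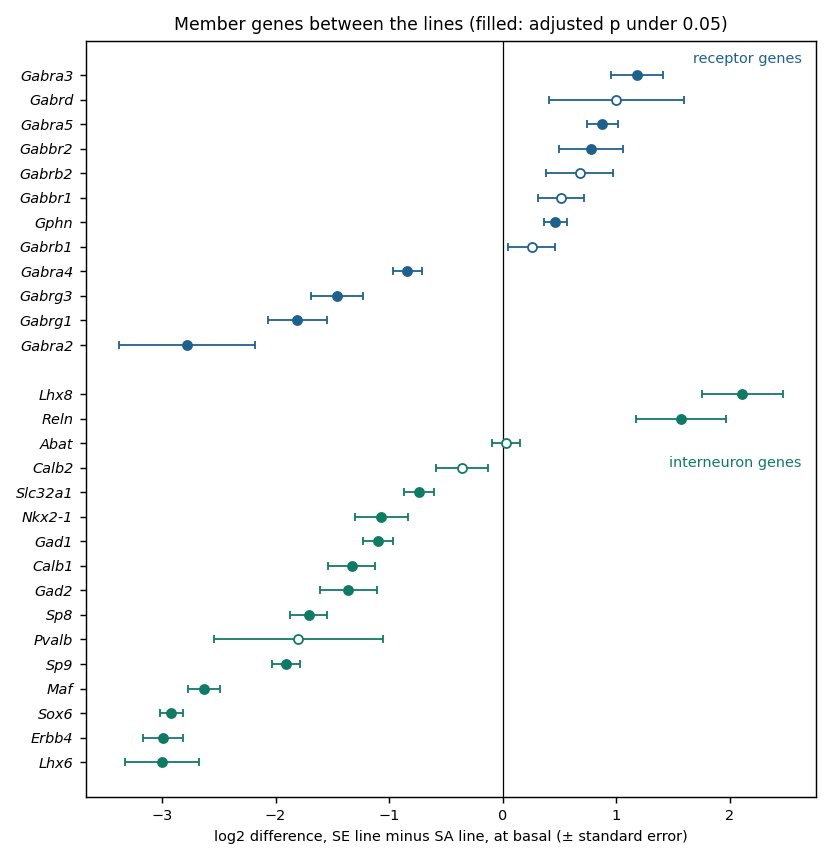
Log2 difference of the SE line minus the SA line at basal, with the standard error, for 12 receptor genes (blue) and 16 interneuron genes (green). Filled points had an adjusted p under 0.05. Vip, near 0 in the SE line, is left out. Receptor genes lie on both sides of 0, while 3 of the 16 interneuron genes lie above it.

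On the interneuron side 14 of 17 genes were called, 12 of them lower in the SE line. Of the 4 genes of synthesis, transport and breakdown, Gad1 was 2.15-fold lower (log2 −1.10 ± 0.13, adjusted p = 0.000183), Gad2 2.57-fold lower (adjusted p = 0.00176) and Slc32a1 1.67-fold lower (adjusted p = 0.00187). After KCl the Slc32a1 call was lost in 4 of 23 alternatives, among them the contrast of wild-type libraries alone (log2 −0.40). The ranges of Slc32a1 overlapped between the lines on CPM and were apart on TPM. The Slc32a1 gene shares 697 exonic bases with Gm14205 on the opposite strand, and Maf, Reln, Gabra5 and Gphn share 440, 246, 148 and 147 with other opposite-strand genes, whose reads cannot be told apart without strand. Lhx6 shares 104 exonic bases with Gm27953 on its own strand. Abat, which neurons and glia both use, was at 68.1 TPM in the SE line and 72.1 TPM in the SA line (medians; adjusted p = 0.867). The ranges of Gad1 were 31.1 to 57.9 TPM over SE-line libraries and 75.7 to 129 TPM over SA-line libraries.

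All 7 transcription factor genes were called, 6 lower and 1 higher. Bulk RNA does not show which cells expressed them. Sox6 had 2.96 and 2.72 TPM in SE and 2.40 TPM in its wild type at basal, against 23.6 and 23.9 TPM in SA and 30.7 and 30.2 TPM in its wild type. It was 7.57-fold lower in the SE line (log2 −2.92 ± 0.10, adjusted p = 3.09e-07). Lhx6, which directs the migration and fate of medial eminence interneurons, was 7.98-fold lower (log2 −3.00 ± 0.33, adjusted p = 0.0001) and Maf 6.20-fold lower (log2 −2.63 ± 0.14, adjusted p = 2.77e-06). Sp8 and Sp9 were 3.27-fold and 3.76-fold lower (adjusted p = 4.93e-05 and 7.85e-06), and Nkx2-1 was 2.10-fold lower (adjusted p = 0.00463). The Nkx2-1 call was lost with wild-type libraries alone in the contrast, at log2 −0.95 at basal and −0.35 after KCl. After KCl it was lost in 6 of 23 alternatives. The ranges of Nkx2-1 overlapped between the lines on CPM and were apart on TPM. Lhx8, which in the medial eminence is known for striatal interneurons and cholinergic neurons, went the other way. It was rare in both lines, with 107 estimated counts over the 6 SE-line libraries and 38 over the 8 SA-line libraries (log2 2.11 ± 0.36, adjusted p = 0.0012; log2 0.56 at the lowest among the alternatives).

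The subtype markers were mixed. Erbb4 was 7.92-fold lower in the SE line (log2 −2.99 ± 0.18, adjusted p = 4.36e-06) and Calb1, which encodes the calcium-binding protein calbindin, 2.52-fold lower (adjusted p = 0.000759). Vip, which encodes a neuropeptide of caudal eminence interneurons, had 1 estimated count over the 6 SE-line libraries and 498 over the 8 SA-line libraries (adjusted p = 0.0149). The Vip call was lost with wild-type libraries alone in the contrast, at log2 −4.96 at basal and −8.35 after KCl. At basal it was also lost with the replicate block. Calb2, which encodes calretinin, was at 56.0 TPM in the SE line and 70.2 TPM in the SA line, with overlapping ranges (adjusted p = 0.223). Pvalb was under 1 TPM in every SE-line library and between 0.81 and 5.49 TPM in SA-line libraries (adjusted p = 0.0728). Its highest values, 4.64 and 5.49 TPM, were those of replicate 1 of the SA-line wild type. The next highest was 2.11 TPM, in SA replicate 2 at basal. Reln was 2.97-fold higher in the SE line (log2 1.57 ± 0.40, adjusted p = 0.00941), with 45.3 to 65.2 TPM in SE-line libraries and 5.98 to 27.8 TPM in SA-line libraries. Without replicate 1 of the SA-line wild type it was at log2 1.30 (adjusted p = 0.000562). Reln is expressed by Cajal-Retzius cells, the earliest neurons of the cortical surface, as well as by interneurons. Of 7 Cajal-Retzius markers, Reln and Calb2 among them, 6 were higher in the SE line, led by Ndnf (log2 2.89), Lhx5 (4.32) and Lhx1 (4.17). Reln itself is counted among the 6, and 20.7% of all genes were called higher. Lhx1 and Lhx5 were low, at 1.1 to 1.84 and 2.13 to 3.4 TPM in SE-line libraries. The part of Cajal-Retzius cells in the Reln difference was not tested.

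When the contrast was restricted to wild-type libraries, 17 members at basal and 18 after KCl kept their call among the 22, against 28.6% and 31% of all genes called. Without replicate 1 of the SA-line wild type 24 members were called at basal and 23 after KCl, against 48.5% and 50.9% of all genes. The 22 were among them, and those gained were Gabrd in both treatments and Gabbr1 at basal.

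Marker genes of other cells differed between the lines in the same comparison. Over all genes 45.8% were called at basal, 20.7% higher and 25.2% lower in the SE line. The 27 other interneuron genes summed to 266 to 310 TPM in SE-line libraries and 766 to 883 TPM in SA-line libraries, and 1 was higher and 18 lower in the SE line at basal, among them Dlx1 (log2 −2.52) and Adarb2 (−1.94). The 9 glutamatergic markers summed to 1180 to 1320 TPM in the SE line and 395 to 585 TPM in the SA line, and 6 were higher, led by Tbr1 (log2 2.99) and Fezf2 (3.69), transcription factors of deep-layer projection neurons. Astrocyte markers summed to 239 to 313 TPM in the SE line and 983 to 1660 TPM in the SA line, with 7 of 7 lower. Oligodendrocyte-lineage markers summed to 65.5 to 78.9 TPM and 339 to 476 TPM, with 7 of 8 lower, and neural progenitor markers to 226 to 304 TPM and 816 to 3120 TPM, with 7 lower and 1 higher of 8. Microglial, endothelial and meningeal markers were lower too, in 5 of 6, 3 of 5 and 7 of 7 tested genes. Striatal markers summed to 129 to 172 TPM in the SE line and 69.1 to 132 TPM in the SA line, with 4 higher and 1 lower of 11. No marker on these lists was at 0 in all libraries of a line. The part of these differences in the member values was not tested.

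**Figure D5:**
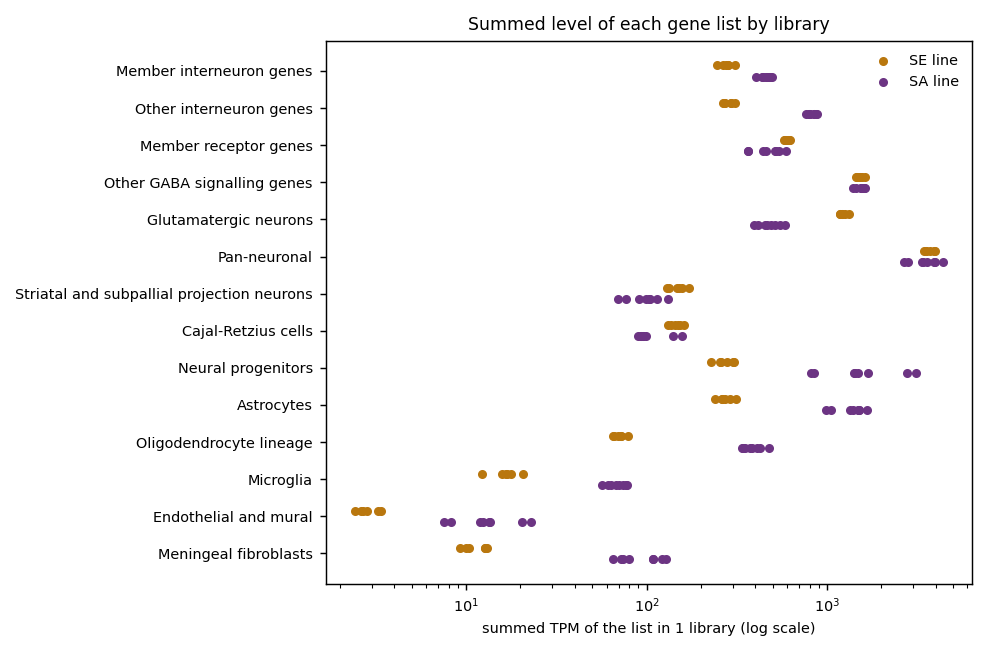
Summed TPM on a log scale of each gene list in each library, with the 6 SE-line libraries drawn above the 8 SA-line libraries. The interneuron, glial and progenitor lists lie lower in the SE line, the glutamatergic list lies higher, and the other GABA signalling and pan-neuronal lists overlap.

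Other GABA signalling genes were mixed between the lines. Over all genes 20.7% were higher and 25.2% lower in the SE line at basal, so a call alone is no mark of this list. Of 27 tested genes of the list, 4 were higher and 9 lower. The lower ones included Slc6a13, a GABA transporter found mainly outside neurons (log2 −3.82), Plcl1 (−0.85) and Slc12a2, the chloride importer NKCC1 (−0.93). The higher ones were Shisa7 (log2 0.93), an accessory protein of GABA-A receptors, Gabarapl2 (0.34), Zdhhc3 (0.27) and Clptm1 (0.28).

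Transcript shares were set side by side between the lines, without a test. Gabrb1 is made of a 13737-base and a 799-base protein-coding transcript in the annotation. The short one held 10.98% of the gene's TPM in the SE line and 33.7% in the SA line. Its level overlapped, at 0 to 3.06 TPM in SE-line libraries and 2.52 to 8.84 TPM in SA-line libraries. By gene the TPM of Gabrb1 was 10.8 to 16.3 in the SE line and 15.5 to 19.9 in the SA line, although its count-based difference at basal was positive. For Gphn, the transcript of 3570 bases held 43.1% of the TPM in the SE line and 30.8% in the SA line, and that of 3300 bases 53.2% and 64.0%. For Gad1 the shares were close, with 35.2% in the SE line and 39.5% in the SA line for the 3355-base transcript. Among the interneuron genes, Reln-207 held 47.2% of the TPM of Reln in the SE line and 63.1% in the SA line, Maf-201 37.0% and 52.2% of that of Maf, and Lhx6-205 18.5% and 37.5% of that of Lhx6. In SE-line libraries Lhx6-205 was at 0 to 1.41 TPM and Maf-201 at 0.515 to 1.08 TPM, so both shares rest on low values there. All shares are estimates of the pseudoalignment model, and their own error was not analysed here.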

How the data were processed

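Total RNA was extracted with TRIzol and cleaned on columns before library preparation for all 14 libraries, per the labels' protocols. Per the submitters' processing notes, which name kallisto 0.43.1 and the build GRCm38 (mm10), the authors estimated transcript abundance by pseudoalignment. The deposited files give estimated counts (65.6% of nonzero gene values were not whole, at a tolerance of 1e-06) and TPM, per transcript and per gene symbol. The deposited TPM values are scaled by effective transcript length.

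Gene estimated counts were rounded and fitted with edgeR 4.0.16 in R 4.3.3 (filterByExpr, TMM, glmQLFit and glmQLFTest on 8 group means, 6 residual degrees of freedom, Benjamini-Hochberg over 17732 genes, threshold 0.05). Line contrasts weight the knock-in and its wild type equally. The standard error of a log2 difference is its size divided by the square root of the F statistic. The fits were tested on simulated counts with known changes. Coordinates are 1-based, from GENCODE M21. Alternatives were DESeq2 1.42.0, limma 3.58.1 on log2(TPM + 1) and log2(TPM + 0.1), other scalings and filters, a replicate block, subsets and each library left out. All 30 members are named, and genes outside them come from fixed lists, the up to 4 with the lowest p per direction. Some genes of these lists are not reported here by name. The members and lists were chosen with earlier results of these data known, and the CCAAT and GC box motifs after the windows were read. Depth was near equal, and intervals beyond the replicate spread were not computed.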

Additional observations from a re-analysis of the deposited data

How the results depend on the processing

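No called member changed direction under the alternatives, in 1081 values from 47 calls, each value being 1 call under 1 alternative. Most alternatives reuse the same libraries and the genes were picked as called, so this is no independent check. Among members that were not called, 592 of 7445 such values changed sign. They included Gabrb1 between the lines at basal with limma on TPM (log2 −0.33, against 0.25). Lhx6 and Pvalb did so in SA against wild type at basal without replicate 1 of the wild type (log2 0.21 and 0.67, against −0.32 and −1.07). The count of called members for KCl over all libraries was 2, and 8 with the replicate block, which added Gad1, Gad2, Erbb4, Gabra3, Gabrb1 and Gabrb2, and 0 with the SA-line libraries alone. For KCl in SA the count was 0, and 2 with the replicate block. For KCl in SE the count was 1, and it was 2 with DESeq2, 0 with limma on TPM at either pseudocount, 0 with the length offset, 4 with the replicate block (Sp8, Sp9, Gad1 and Gabrb2), 2 with the SE-line libraries alone and 2 without replicate 1 of the SA-line wild type. For KCl in wild type it was 0, and 1 with no filter on low counts, 2 with DESeq2 and 3 with the replicate block. Leaving out 1 library at a time gave 2 to 3 called members for KCl over all libraries, 0 to 0 in SA, 0 to 1 in SE, 0 to 1 in wild type, 21 to 26 between the lines at basal and 19 to 24 after KCl, and 0 in the other comparisons. Over all genes, counts of calls moved by more than 1.5 times with the block (KCl over all libraries 2328 against 854, in SE 1024 against 295, in SA 613 against 150, in wild type 829 against 250, response of the SE line minus that of the SA line 133 against 19), with DESeq2 (KCl in SA 252 against 150, SA against wild type after KCl 119 against 0, response between the lines 63 against 19), with fits of part of the libraries (KCl over all libraries 169 against 854 in the SA line alone, KCl in SE 717 against 295 in the SE line alone, SE against wild type 3 at basal and 12 after KCl against 0 in the SE line alone, KCl in SA 68 against 150 in the SA line alone, KCl in wild type 30 against 250 in wild-type libraries alone), with no filter or limma for the response between the lines (49, 33 and 30 against 19), without replicate 1 of the SA-line wild type (KCl in SA 239 against 150, response between the lines 30 against 19), with crossed numbers (SA against wild type 16 at basal and 853 after KCl against 0) and with wild-type libraries alone in the line contrast (5067 against 8128 at basal and 5495 against 8528 after KCl, 2 against 19 for the response) or 1 line alone in the KCl contrast (499 in the SE line and 359 in the SA line against 854, and 133 in the SA-line wild type against 250). Same-numbered libraries after KCl and at basal deviated together in SA (r = 0.375) and in the SA-line wild type (r = 0.623) but not in SE (r = −0.0513). These correlations are across 17732 genes that are not independent. The labels do not pair the libraries, so whether a replicate number marks a shared culture is not known. Between SA and its wild type the correlations were −0.276 at basal and −0.257 after KCl. A block with crossed numbers, chosen after seeing the data, called 0 members at basal and 1 after KCl, Sox6. Subsets by line and the pair of libraries left out together hold fewer libraries. The contrasts of 1 line alone and the line contrast of wild-type libraries alone use the fit of all 14 libraries. The cause of these changes in the counts was not tested. With 1 wild-type library per treatment in the SE line and 2 elsewhere, small differences were not detectable.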
